A study of Mus musculus with 4 samples.

Results

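The miRNAs described here carry the numbers miR-297, miR-466, miR-467 and miR-669, most of whose genes form a repetitive cluster within the mouse gene Sfmbt2. They were chosen by name alone, as the array entries naming a mouse miRNA of one of these numbers, with any letter and either arm, but without the star that marks a minor arm. Of 1030 mouse entries on the array 57 were chosen, and 2345 entries named a miRNA of any organism. They comprised 4 entries for miR-297, 26 for miR-466, 8 for miR-467 and 20 for miR-669, and 1 entry naming both miR-466m-5p and miR-669m-5p was counted under both numbers. The samples were untreated primary cultures of cortical neurons from E15 embryos of Swiss Albino mice, which were taken after 2, 4, 6 or 8 days in culture (Days 2, 4, 6 and 8). For each day total RNA of 4 experiments was pooled and hybridized to 1 array of locked nucleic acid capture probes, so that the spread between cultures was not measured. No day could be tested against another, and each ± below is the SD between replicate spots of the same arrays.

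Sfmbt2 encodes a Polycomb group protein and is known as an imprinted gene, expressed from the paternal copy in the mouse placenta. Its intron holds a long tandem array of miRNA hairpins that is found in rodents, and many of its mature miRNAs are runs of alternating bases resembling simple repeats. miRNAs guide Argonaute proteins to messenger RNAs, mainly through the seed near their 5′ end, and the arms of a hairpin give different mature miRNAs, called 5p and 3p. In the RefSeq gene table of assembly GRCm38.p6, 72 miRNA genes lay within Sfmbt2 on chromosome 2, and all of them carried one of the numbers studied here. They were 5 genes of miR-297, 24 of miR-466, 14 of miR-467 and 29 of miR-669, over 51.6 kb. A miR-467, a miR-466 and a miR-669 gene stood next to each other in that order 12 times. A further 10 genes of these numbers lay elsewhere, on 7 other chromosomes. Of the 57 miRNAs 44 had all their genes within Sfmbt2, 8 had them all elsewhere, and 5 had genes in both places.

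Mature sequences from RefSeq (GRCm38.p6) were matched for 7 of the 57 miRNAs, all with genes outside Sfmbt2. They are shown because they make the repeated bases visible, with the seed (bases 2 to 8) in capitals.
miR-467f: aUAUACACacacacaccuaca
miR-466i-3p: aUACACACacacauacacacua
miR-467g: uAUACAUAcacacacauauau
miR-669n: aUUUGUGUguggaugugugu
miR-466j: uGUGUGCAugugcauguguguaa
miR-466k: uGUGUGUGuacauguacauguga
miR-467h: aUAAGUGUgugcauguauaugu
The first 3 contain the motif ACACAC and consist of A or C for 71.4% to 86.4% of their bases. The other 4 contain UGUGUG, the base for base complement, and consist of U or G for 68.2% to 90.0%. All 7 seeds were different, and miR-467h alone shared its seed with another miRNA of the table, miR-668-5p. Pairs of these sequences were 5 to 17 single-base edits apart. On the plus strand miR-466i-3p lay at chr13:17747552-17747573, miR-669n at chr3:115979905-115979924, miR-466j at chr10:60960802-60960824, miR-466k at chr3:85467396-85467418 and miR-467h at chr9:115381898-115381919. On the minus strand miR-467f lay at chr11:69635419-69635439 and miR-467g at chr5:34732872-34732892. Searched on the mature strand at any position, ACACAC occurred in 11 of 1679 mature mouse miRNAs in the table (0.655%) and UGUGUG in 28 (1.67%). All 3 of the miRNAs with ACACAC were detected, and miR-669n and miR-466j of the 4 with UGUGUG. How far a capture probe separates miRNAs as alike as these was not tested.

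Some facts of the arrays touch every value below. The mean background-subtracted signal of mouse entries was 1524, 1653, 1275 and 1558 on Days 2, 4, 6 and 8, and no negative control exceeded 139. The neuronal miR-124 and miR-9 were saturated on all 4 arrays, whereas none of the 57 miRNAs had a saturated pixel. The astrocyte-enriched miR-143, the mesenchymal miR-145 and the myeloid miR-223 did not exceed 29.5. The leukocyte miR-142-3p and the erythroid miR-451 were above 300 on Days 2 and 4, at 342 to 632, and below it thereafter. Entries for 2 miRNAs known from embryonic stem cells and trophoblast were detected on every array, with miR-290-5p between 3466 and 6047 and miR-302a between 1805 and 3331. Over these families, 6 of 14 entries from miR-290 to miR-295 were detected and 1 of 8 of miR-302, and miR-294, miR-295 and miR-302b to miR-302d did not exceed 166. The part of any other cell type in the values below was not tested.

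An entry was called detected when its mean background-subtracted signal reached 300, the inclusion threshold of the study's methods. At least 1 array detected 29 of the 57 miRNAs (50.9%), against 40.7% of all mouse entries. The single arrays detected 26, 29, 24 and 27 of them on Days 2, 4, 6 and 8 (45.6%, 50.9%, 42.1% and 47.4%), against 35.8%, 38.9%, 32.9% and 37.7% of all mouse entries. On all 4 arrays 24 were detected. In bulk RNA, fewer cells containing a miRNA and less of it per cell cannot be told apart. By subfamily, of miR-669 12 of 20 entries were detected (60.0%), and of miR-466 15 of 26 (57.7%). Of miR-467 2 of 8 were detected and of miR-297 1 of 4 (25.0% each). Both detected miR-467 miRNAs, miR-467f and miR-467g, had their genes outside Sfmbt2, so that none of the unstarred miR-467 entries from within Sfmbt2 reached 300 on any day.

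**Figure D1:**
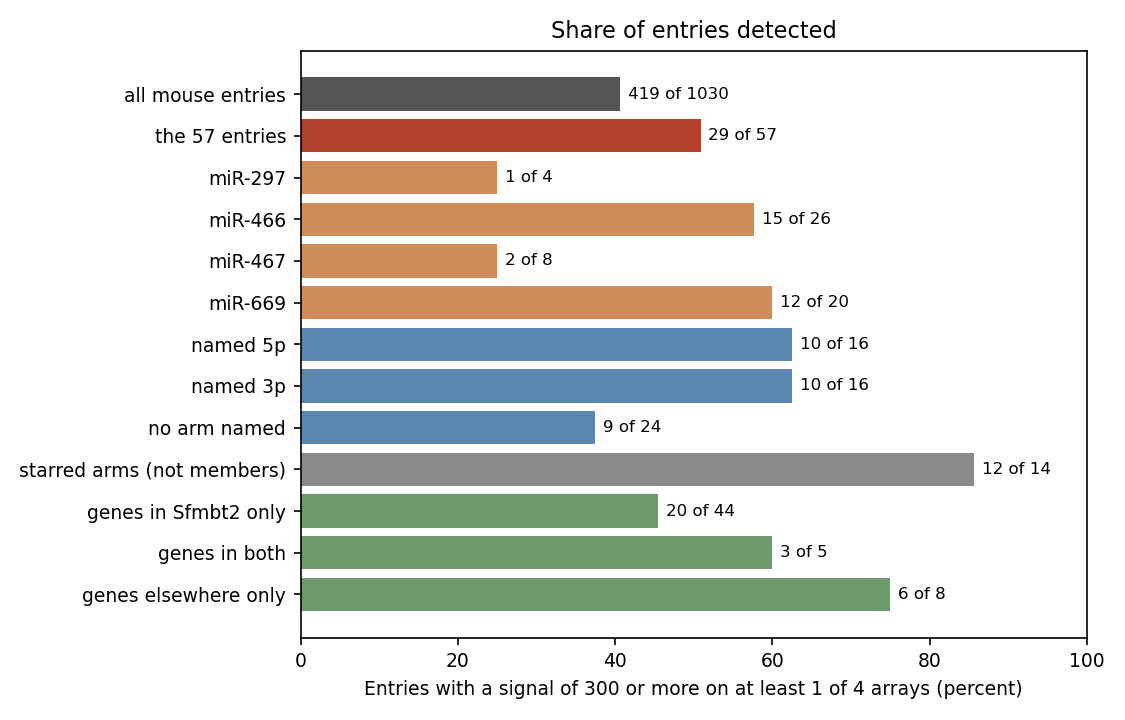
Share of entries with a signal of at least 300 on at least 1 of the 4 arrays, in percent, by group, with the number of entries beside each bar. The 57 miRNAs stood at 50.9% and all mouse entries at 40.7%, and the starred arms of the same numbers, which were not among the 57, at 85.7%.

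Detection was also counted by the arm in the name. Of the entries named 5p 10 of 16 were detected, and likewise 10 of 16 named 3p (62.5% each), against 9 of 24 that named no arm (37.5%). The undetected entry for miR-669a-5p and miR-669p, which gives an arm for one miRNA and not the other, was left out of these classes, and the entry of miR-297b-3p was counted as 3p. Of the starred arms of the same numbers 12 of 14 entries were detected (85.7%). For 14 hairpins the array held both an entry without an arm and its starred partner. The starred entry alone was detected for 9 of them and both for 4, the unstarred alone for none, and neither for 1. The starred partners of miR-297a and miR-297c among these were on 1 shared entry. In the miR-467 subfamily miR-467a gave 3.49, 18.5, 26.5 and 23.8 on Days 2, 4, 6 and 8. Its partner miR-467a* gave 1078, 1166, 841 and 1244. Likewise miR-467e, at 201, 216, 125 and 179, stayed under the threshold and miR-467e*, at 1274, 1354, 1038 and 1621, did not. In miR-669, the entry for miR-669k lay between -25.2 and 3.16 and that for miR-669k* between 490 and 754. For miR-669c both arms were detected, miR-669c* at 1377, 1790, 1150 and 1810. Of 19 hairpins with a 5p and a 3p entry, both arms were detected for 10, the 3p alone for 4, the 5p alone for 2 and neither for 3. Of the 10, miR-466a, miR-466b, miR-466c, miR-466e and miR-466p were counted as detected for the 3p arm on 1 entry that names all 5. The signals of different probes depend on the probe as well as on the miRNA and are not ranked here. Detection applies the threshold to those same signals, so the counts by arm depend on the probe too. How far they reflect the amounts of the arms was not tested.

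A further count was by the place of the genes. Of the 44 miRNAs with all genes within Sfmbt2 20 were detected (45.5%), and of the 5 with genes in both places 3. Of the 8 encoded elsewhere 6 were detected (75.0%), with miR-466k and miR-467h as the exceptions. The entry for miR-466k did not exceed 45.5, while miR-467h reached 189 on Day 4. No test was made of these shares, since entries that share sequence are not independent.

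The miR-466 subfamily had the most entries. Among its 5p miRNAs miR-466i-5p, encoded outside Sfmbt2, gave signals of 2325, 2641, 1926 and 2991 on Days 2, 4, 6 and 8. The entry for miR-466d-5p gave 865, 1022, 667 and 951, and that shared by miR-466b-5p and miR-466o-5p 537, 676, 383 and 518. miR-466c-5p gave 488, 675, 403 and 524. All of them were lowest on Day 6, and miR-466i-5p was highest on Day 8 where the other 3 were highest on Day 4. Among the 3p miRNAs miR-466f-3p gave 1156, 1232, 853 and 1291, and miR-466n-3p 880, 931, 709 and 1243. The single entry for miR-466a-3p, miR-466b-3p, miR-466c-3p, miR-466e-3p and miR-466p-3p gave 714, 760, 511 and 698. miR-466i-3p, whose sequence is shown above, gave 609, 720, 491 and 681. Here miR-466f-3p and miR-466n-3p were highest on Day 8 and the other 2 on Day 4. miR-466d-3p gave 422, 482, 304 and 403, just above the threshold on Day 6. Without an arm in its name, miR-466f gave 1066, 1300, 849 and 1103 and was detected on every array.

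Several miR-466 miRNAs lay at the threshold. miR-466e-5p gave 348, 520, 279 and 328 and miR-466j 338, 384, 238 and 303, both under 300 on Day 6 alone. miR-466a-5p gave 241, 321, 198 and 297.2, and the entry shared by miR-466m-5p and miR-669m-5p gave 263, 346, 219 and 252, so that each reached 300 on Day 4 alone. Just under the threshold were miR-466n-5p, with 230, 279, 171 and 250, and miR-466f-5p, with 207, 237, 153 and 244, and their 3p partners were detected on every array. Also undetected was miR-466h-5p, which is known to promote apoptosis in Chinese hamster ovary cells, at -9.89 to 56.0. miR-466l-3p, from a hairpin known in mouse macrophages for stabilizing the mRNA of interleukin 10, lay between -23.4 and 9.64.

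The array held a pair of entries for some of these miRNAs, and they did not read alike. The entry for miR-466a-3p and miR-466e-3p gave 54.1, 145, 82.1 and 90.2, always under 300. The entry naming these 2 miRNAs with 3 others gave at least 511 on every array, as listed above. For miR-466a-5p the entry of its own passed 300 on Day 4 alone, whereas the entry shared with miR-466p-5p gave 450, 679, 361 and 514. Whether a miRNA counted as detected thus depended on the entry for miR-466a-3p and miR-466e-3p.

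**Figure D2:**
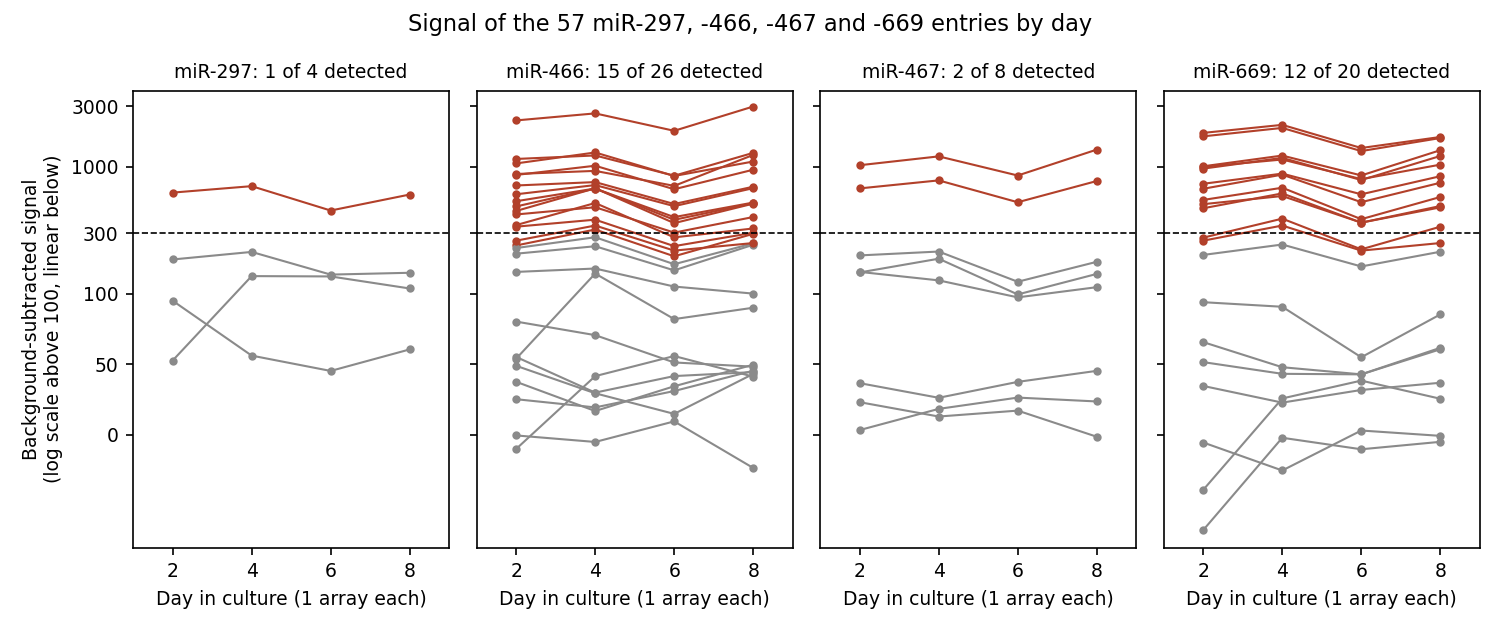
Mean background-subtracted signal over the replicate spots of each of the 57 miRNA entries on Days 2, 4, 6 and 8, by subfamily, with 1 array per day and the entry shared by miR-466m-5p and miR-669m-5p in both panels. The vertical axis is logarithmic above 100 and linear below, the broken line marks 300, red lines are entries that reached it and grey lines those that did not. All 29 red lines are lowest on Day 6.

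In the miR-669 subfamily miR-669c gave 1854, 2145, 1410 and 1721 on Days 2, 4, 6 and 8. miR-669n, which is encoded on chromosome 3, gave 1742, 2029, 1333 and 1689. Both were highest on Day 4 and had a lower signal on Day 8 than on Day 2. The entry for miR-669a-3p and miR-669o-3p gave 1012, 1229, 857 and 1354, and that for miR-669a-3-3p 970, 1179, 789 and 1220. Both of these were highest on Day 8. The miR-669a hairpin is known in mouse cardiac progenitor cells for targeting the muscle factor MyoD. Its other arm, on an entry shared with miR-669p, stayed under the threshold at 203, 245, 165 and 215. miR-669m-3p gave 1003, 1144, 802 and 1042. miR-669f-3p gave 737, 886, 609 and 845 and miR-669f-5p 673, 870, 528 and 750. For miR-669f both arms were thus detected on every array. Lower signals came from miR-669o-5p, with 550, 686, 388 and 580, and miR-669e, with 473, 619, 364 and 492. miR-669d gave 509, 590, 364 and 480. miR-669l gave 277, 392, 224 and 338 and was detected on Days 4 and 8 alone.

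In the miR-467 subfamily miR-467f gave 1032, 1211, 856 and 1369 and miR-467g 678, 784, 527 and 774. Of the 6 undetected entries miR-467b, known in mouse macrophages as a regulator of lipoprotein lipase, gave 149, 128, 97.5 and 113. miR-467c did not exceed 45.5 and miR-467d did not exceed 23.2. The 1 detected entry of miR-297 named miR-297b-3p together with the starred arms of miR-297a and miR-297c. It gave 628, 706, 454 and 606. The entry for miR-297a reached 214, miR-297c 138 and miR-297b-5p 95.1.

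The undetected miRNAs were mostly far from the threshold. Of 28, 18 stayed under 100 on every array, 5 had a highest signal from 100 to 200, and 5 from 200 to 300. The highest negative control was 139, and 9 of the 28 exceeded it on some array. Entries for rat or human miRNAs of the same numbers, which were not among the 57, gave signals as well, with 6 of 8 detected. Among them rno-miR-466b-1* gave 1271, 1598, 1088 and 1753, and rno-miR-466d 677, 860, 534 and 734.

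The signals of the detected miRNAs moved together from array to array. All 29 were lowest on Day 6, as were 324 of the 419 detected mouse miRNAs, and Day 6 was also the array with the lowest mean. On Day 4 23 of the 29 were highest and on Day 8 the other 6, namely miR-466f-3p, miR-466i-5p, miR-466n-3p, miR-467f, miR-669a-3p/miR-669o-3p and miR-669a-3-3p. Of the 419, 190 were highest on Day 4 and 144 on Day 8. The median of the 29 was 673, 760, 511 and 698. Over the 4 spots of an entry the median coefficient of variation was 5.99%.

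To remove differences between arrays, the log2 signals were quantile-normalized, and Days 4, 6 and 8 were set against Day 2 as the signal log ratio (SLR, the log2 difference). On Day 4 0 of the 29 were beyond the study's threshold of 0.6 in either direction, against 7.16% of all detected mouse miRNAs above it and 1.91% below -0.6. Their median SLR was 0.09, with -0.01 for all detected mouse miRNAs, and 22 of 29 were above 0, against 198 of 419. Some of the 29 were detected only through Day 4 itself. Of the 24 at 300 or more on all arrays 18 were above 0. Their median was 0.07, with -0.01 for all mouse miRNAs so filtered. Among those at 300 or more on both arrays, the highest were the entry for miR-466a-5p and miR-466p-5p (0.31 ± 0.32), miR-466e-5p (0.25 ± 0.13) and miR-466c-5p (0.21 ± 0.19). The lowest were miR-466n-3p (-0.08 ± 0.04), the entry for miR-466a-3p and 4 other 3p miRNAs (-0.08 ± 0.08) and miR-466j (-0.04 ± 0.18). All 10 detected entries named 5p were above 0, with a median of 0.11, and 5 of the 10 named 3p, with a median of -0.00. All detected mouse entries were not split by arm, and entries that share sequence are not independent. Whether the arms differed was therefore not tested. Of the entries named 5p, miR-466a-5p and miR-466m-5p/miR-669m-5p were under 300 on Day 2 and reached it on Day 4 alone. The spots of miR-669l ran from 121 to 334 on Day 2, and no fold is given for it.

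On Day 6 again 0 of 29 were beyond the threshold, with 9.79% of all detected mouse miRNAs above 0.6 and 4.53% below -0.6. The median was 0.03, against -0.01 for all. Among the 24 that were detected on all arrays the SLR ran from -0.10 to 0.11. The highest were miR-669a-3p/miR-669o-3p (0.11 ± 0.10), miR-466i-5p (0.09 ± 0.08) and miR-466c-5p (0.09 ± 0.21). The lowest were miR-669d (-0.10 ± 0.06), miR-669o-5p (-0.09 ± 0.07) and miR-466d-3p (-0.08 ± 0.12). Of these 6 values 4 exceeded their SD between spots, which is larger than the error of a mean over spots. No fold is given for miR-466e-5p, miR-466j, miR-466a-5p, miR-466m-5p/miR-669m-5p and miR-669l, which were under 300 on this array. They still enter the count and the median of the 29.

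On Day 8 0 of 29 were beyond the threshold as well, when 10.7% of all detected mouse miRNAs were above 0.6 and 11.2% below -0.6. The median was -0.00, against -0.03 for all. miR-466n-3p was highest, at 0.31 ± 0.06. It was followed by miR-669a-3p/miR-669o-3p (0.25 ± 0.12), miR-467f (0.24 ± 0.12), miR-466i-5p (0.17 ± 0.08) and miR-669a-3-3p (0.17 ± 0.06). These 5 came from 3 of the 4 numbers, and none of them had an SLR beyond 0.11 in size on Days 4 and 6. With at least 300 on both arrays, the lowest were miR-466j (-0.20 ± 0.11), miR-669d (-0.16 ± 0.08), miR-466d-3p (-0.15 ± 0.09), miR-466e-5p (-0.15 ± 0.11), miR-669c (-0.15 ± 0.10) and miR-466b-5p/miR-466o-5p (-0.12 ± 0.16). By number, the median on Day 8 was -0.00 for the 15 detected miR-466 entries, -0.03 for the 12 of miR-669, 0.15 for the 2 of miR-467 and -0.12 for the 1 of miR-297. By gene location it was -0.01 for the 20 from within Sfmbt2 and 0.06 for the 6 from elsewhere.

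**Figure D3:**
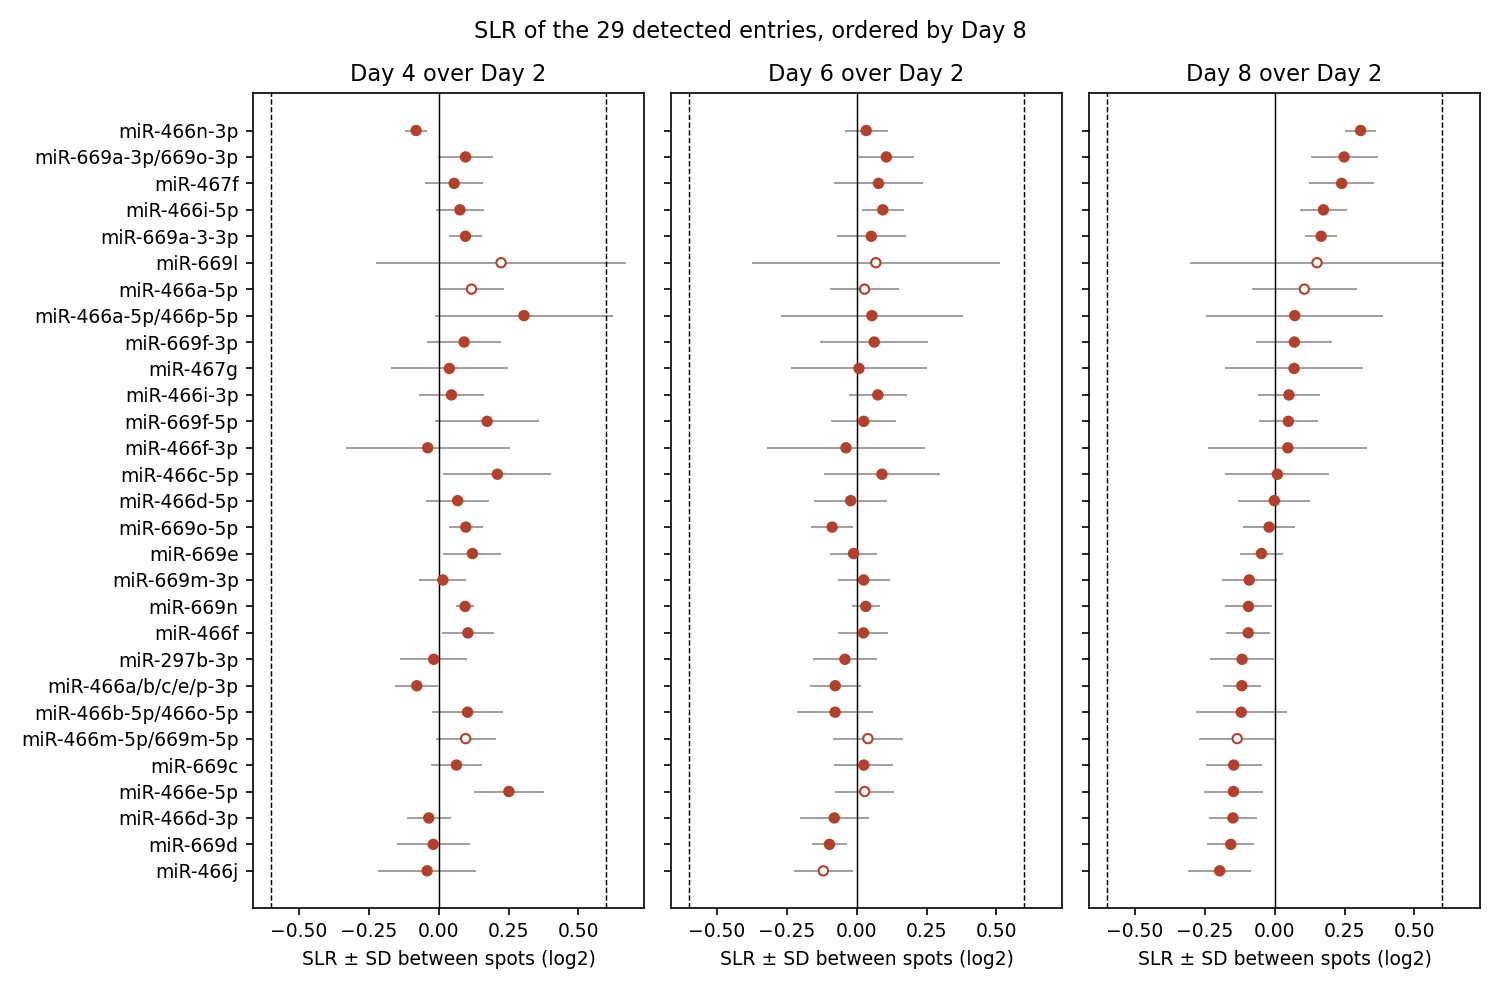
SLR of the 29 detected entries on Days 4, 6 and 8 against Day 2 (log2), ordered by Day 8, with bars for the SD between spots and broken lines at 0.6 and -0.6. Open points mark entries under 300 on at least 1 of the 2 arrays compared. No point lies beyond a broken line, and the highest on Day 8 is miR-466n-3p at 0.31.

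The SLRs of the 29 spanned a narrow range. The SD of the SLR over the 29 was 0.095, 0.063 and 0.140 on Days 4, 6 and 8, against 0.320, 0.420 and 0.553 over all 419. The 12 detected starred arms of the same numbers were also narrow, at 0.095, 0.110 and 0.197. On Day 8 the 419 ran from -1.78 to 1.89 and the 29 from -0.20 to 0.31. The median size of the SLR on Day 8, without regard to sign, was 0.117 for the 29, and the median SD between their spots was 0.111. For all 419 these were 0.304 and 0.114, and for the 12 detected starred arms 0.063 and 0.103. This SD is that of single spots, whereas an SLR is a difference between means over spots, whose error is smaller. These are descriptions over entries that share sequence, and no test was made of the difference in spread.

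The spots themselves were compared where they did not overlap between arrays. On Day 4 6 of the 29 had all spots above those of Day 2 and 1 had all below, against 18.6% and 22.9% of all detected mouse miRNAs. The 6 were miR-466a-5p/miR-466p-5p, miR-466e-5p, miR-669n, miR-669o-5p, miR-669a-3p/miR-669o-3p and miR-669a-3-3p, and the 1 was miR-466n-3p. On Day 6 miR-466i-5p was apart above and miR-669d below, 1 each, against 20.8% and 23.4%. On Day 8 5 were apart above and 5 below, against 30.8% and 35.3%. Those above were the 5 with the highest SLR, and those below were miR-466d-3p, miR-466e-5p, miR-466j, miR-669d and miR-669n. Counts among the 29 were at or under the share of all detected miRNAs in each case but for the 6 of 29 on Day 4.

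**Figure D4:**
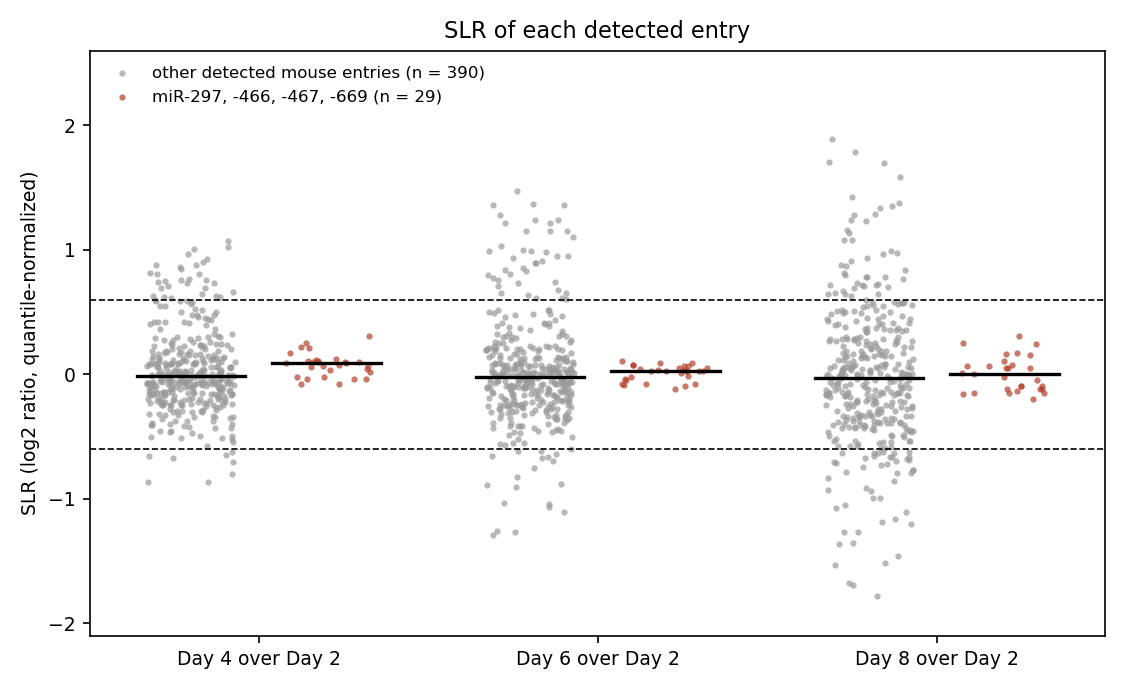
SLR of each detected mouse entry on Days 4, 6 and 8 against Day 2 (log2, quantile-normalized). The 29 entries of miR-297, miR-466, miR-467 and miR-669 are in red and the other 390 in grey. Black bars mark the medians and broken lines 0.6 and -0.6. Points are spread sideways for visibility. The red points lie within -0.20 to 0.31 on every day, while the grey points run from -1.78 to 1.89 on Day 8.

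A linear trend over the 4 days was fitted with limma to all 419 detected mouse miRNAs. By this test 0 of the 29 rose and 0 fell at a Benjamini-Hochberg adjusted p of 0.05, against 3.58% of all detected mouse miRNAs that rose and 9.55% that fell. At an unadjusted p under 0.05 the count was also 0 of 29, against 157 of 419. The slopes ran from -0.033 to 0.052 log2 units per day. The largest was that of miR-466n-3p (0.052 ± 0.025 SE, limma adjusted p = 0.204), and the lowest adjusted p was that of miR-669a-3p/miR-669o-3p (0.038 ± 0.018 SE, adjusted p = 0.198). The 4 arrays leave 2 residual degrees of freedom, so that slopes of this size could not be told from 0. Of the starred arms 0 of 12 detected passed either, and miR-669p* was nearest (0.065 ± 0.019 SE, limma adjusted p = 0.088), with an SLR of 0.41 ± 0.11 on Day 8.

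How far the miRNAs stood from 0 depended on the scaling of the arrays. Scaled by endogenous small RNAs, the kind of normalization the study's methods name, miR-466i-5p (0.67) and miR-466n-3p (0.62) passed 0.6 on Day 8, when 20.3% of all detected mouse miRNAs did. Scaled by spike-in probes, 16 of 29 were below -0.6 on Day 6, with 52.7% of all detected mouse miRNAs. Without normalization 18 of 29 were below it on that day, with 56.8% of all. Scaled by the median of all miRNA spots, 27, 10 and 24 were above 0.6 on Days 4, 6 and 8, with 74.5%, 40.1% and 69.2% of all. Taken from the median of all detected mouse miRNAs in the same setting, 0 of 29 were beyond 0.6 on any day in the reported processing or in any of the 14 others. The values so taken ran from -0.42 to 0.49. Many of these settings are not separate checks. Endogenous, spike-in and median scaling and no normalization differ only by a constant per array. They therefore give the same values so taken by construction, as do the scalings with a floor among themselves. Settings that changed only the filter reuse the reported SLRs.

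**Figure D5:**
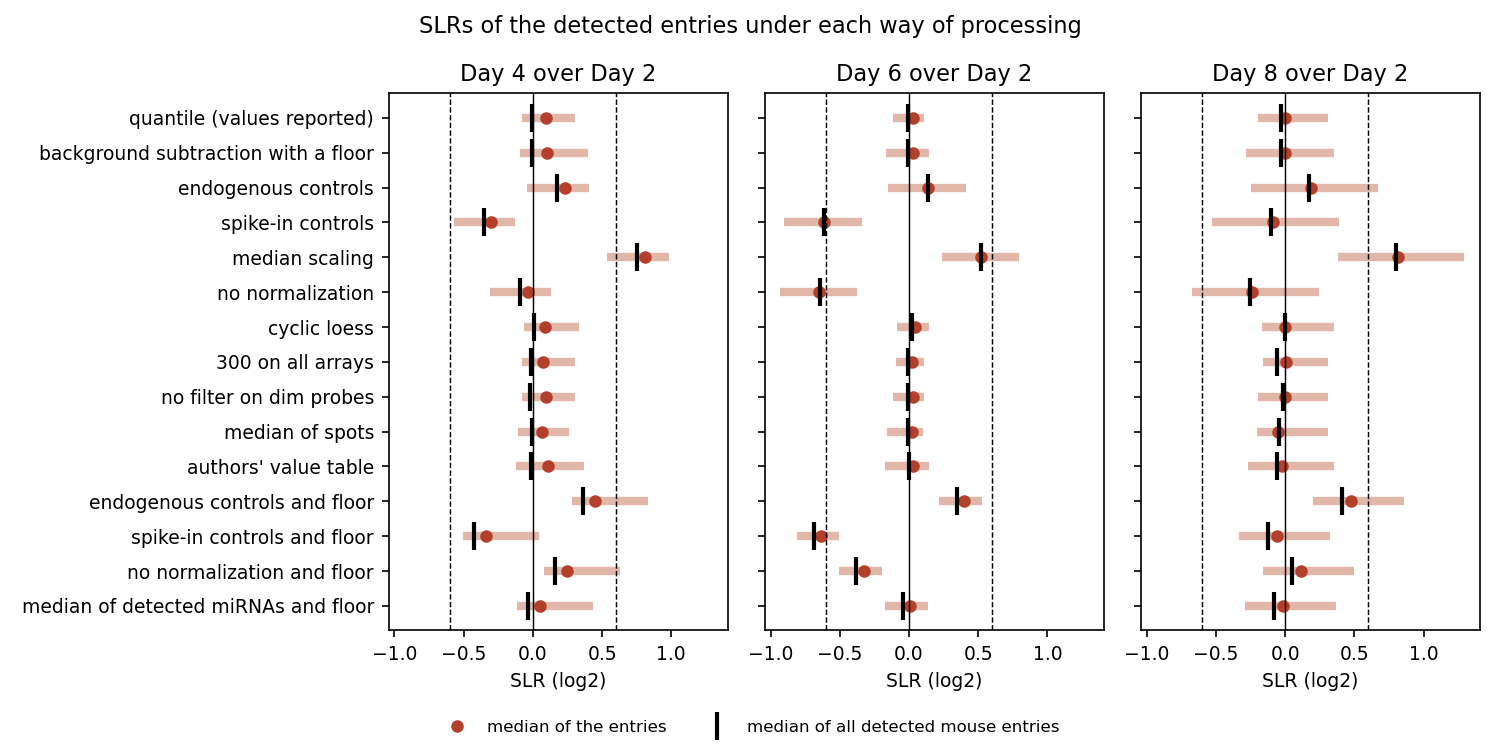
SLR of the detected entries on Days 4, 6 and 8 against Day 2 (log2) under each way of processing, with the range over the entries as a band, their median as a red point and the median of all detected mouse entries as a black bar. Broken lines mark 0.6 and -0.6. The red points shift from -0.65 to 0.82 with the scaling, and the red points stay within 0.12 of the black bars. Between settings that differ only by a constant per array, this distance is the same by construction.

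Other mouse miRNAs on the array contain the same repeated letters. The search covered only the 1679 miRNAs with a mature sequence at hand, which held 7 of the 57, so that more may exist. Of 3 others found with ACACAC 1 was detected, miR-362-3p, and of 5 others found with UGUGUG 4 were. On Day 8 their SLRs were -0.30 ± 0.10 for miR-362-3p, -0.42 ± 0.07 for miR-291a-3p, -0.01 ± 0.17 for miR-574-5p, 0.18 ± 0.06 for miR-3082-5p and 0.08 ± 0.28 for miR-1187. All 5 lay within 0.6 of Day 2, as did most detected mouse miRNAs, of which 10.7% were above 0.6 and 11.2% below -0.6. Of the 5, miR-362-3p and miR-291a-3p lay below the lowest of the 29.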

How the data were processed

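The authors scanned 1 single-dye (Hy3) array per day, with pooled RNA of 4 experiments, on an array designed for miRBase 16.0. The deposited scanner files give for each spot the mean and median foreground and the local background intensity at 532 nm, the same at 635 nm, where no dye was used, and the percent of saturated pixels, none normalized between arrays. The deposited value table holds linear intensity, the mean over spots of the median foreground minus background, and served as an alternative. How the software filtered spots is not given in the sources used here. Mean intensity was corrected with normexp (offset 50) in limma 3.58.1 (R 4.3.3) over all 12312 spots per array, controls were removed, and log2 values of miRNA spots were quantile-normalized and averaged over the replicate spots, 4 for each of the 57 entries. The trend script was tested on simulated data.

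Detection, the SLR and its threshold of 0.6 follow the study's methods, which scaled by endogenous controls. That scaling, 13 other ways of processing and the trend without each day were tried as alternatives, 4 of them chosen after seeing the data. The SD of an SLR joins the spot SDs of both arrays, and intensity gives no counting error, so that the number of arrays limits the precision. An entry under 300 on either of the arrays compared was given no fold. The trend used limma (lmFit, eBayes, two-sided, Benjamini-Hochberg over 419 detected mouse miRNAs). Names are those of the array design and were matched to RefSeq genes by name. Values are given for miRNAs at the ends of each subfamily's signals and of the SLRs, near 300, on shared entries, and for hairpins with both arms probed, which takes in all 29 detected. The members, lists and tests were chosen with earlier results of these data known.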

Additional observations from a re-analysis of the deposited data

How the results depend on the processing

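Scaling moved the counts. Without a filter all 57 entries entered, and 1, miR-466l-3p with signals near 0, was below -0.6 on Day 8 (5.15% of all 1030 mouse entries). With endogenous controls 2 miRNAs were above 0.6 on Day 8, and the median SLR was 0.23 and 0.19 on Days 4 and 8. With spike-in controls 16 were below -0.6 on Day 6, with medians of -0.30 and -0.62 on Days 4 and 6. With median scaling 27, 10 and 24 were above 0.6 on Days 4, 6 and 8, with medians of 0.81, 0.52 and 0.82. Without normalization 18 and 2 were below -0.6 on Days 6 and 8 (56.8% and 19.3% of all detected mouse miRNAs), with medians of -0.036, -0.65 and -0.24. The normexp step bears on these scalings, as it left the median of all miRNA spots at 363 on Day 2 and at 202, 161 and 175 on the later days, from 78.1, 81.1, 72.5 and 82.7 before it. Scalings of background-subtracted values with a floor of 50 were therefore added after seeing the data. Endogenous controls then put 6 and 7 above 0.6 on Days 4 and 8 (22.9% and 35.8% of all, medians 0.45, 0.40 and 0.48), spike-in controls 20 below -0.6 on Day 6 (63.7% of all, medians -0.34 and -0.63 on Days 4 and 6), and no normalization 2 above 0.6 on Day 4 (16.7% of all, medians 0.24, -0.33 and 0.12). With the median of detected miRNAs 0 were beyond 0.6. Relative to all detected mouse miRNAs, the median of the 29 stayed within 0.06 to 0.12, -0.00 to 0.05 and -0.01 to 0.07 on Days 4, 6 and 8 in every setting. Settings that differ only by a constant per array share these values by construction. In limma's trend 1 rose with endogenous controls and the floor (miR-466n-3p, adjusted p = 0.049, with 83 of 419 rising), and without Day 2 1 fell (miR-466e-5p, adjusted p = 0.047, with 66 of 419 falling, range over the 4 refits 0 to 1). All other settings gave 0 in either direction, with at most 5 at an unadjusted p under 0.05. No paired analysis was possible because each day has 1 array and the labels give no replicate numbers, and for the same reason slide or scan could not be fitted as a block. Each value rests on 1 pooled array per day, and signals under 300 give no fold.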
